A study of Mus musculus with 2 samples.

Results

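Regulatory T cells (Tregs) of mouse melanoma were described here as the tumor T cells that carried a UMI (a counted mRNA molecule) of Foxp3 and none of Cd8a or Cd8b1. The rule left 150 cells, 63 in the Tcf7 knockout (KO) library and 87 in the wildtype (WT) library, of 2074 cells that passed the filters. A T cell needed a UMI of Cd3d, Cd3e or Cd3g and under 0.5% of its UMIs from the MHC class II genes Cd74, H2-Aa, H2-Ab1 and H2-Eb1, and a Cd4 UMI was not asked for. Beside them stand 267 conventional CD4 T cells (153 KO and 114 WT), which had a Cd4 UMI and no UMI of Foxp3, Cd8a or Cd8b1.

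All mice were female and homozygous for floxed Tcf7. KO mice also carried the E8i-cre transgene, which is active in mature CD8 T cells, and WT mice lacked it. Both groups bore B16Ova tumors, a melanoma line that makes ovalbumin, grown under the skin of the flank until day 13. Immune cells of 3 tumors per group were sorted into 4 gates, mixed, and run as 1 droplet library per genotype. A cell cannot be traced to its tumor, so no value below has a replicate, no test between genotypes was possible, and all intervals are 95% intervals that cover counting error only.

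Foxp3 encodes the forkhead transcription factor that defines Tregs, which restrain other T cells. Tregs bind interleukin 2 through the high-affinity receptor chain Il2ra, display the inhibitory receptor Ctla4, and in tumors commonly carry tumor necrosis factor (TNF) receptor family members and the chemokine receptor Ccr8. Tcf7 encodes TCF-1, a transcription factor of naive and memory-like T cells.

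The 2 libraries held 1219 KO and 1120 WT barcodes, with 11758449 and 9283014 UMIs, and shared 1 barcode sequence. Tregs had a median of 5624 UMIs in KO (667 to 42557) and 4702 in WT (722 to 32761), and conventional cells had medians of 4183 and 3568. A Cd4 UMI was seen in 33 of 63 KO Tregs and 58 of 87 WT Tregs. Of 107 KO and 149 WT filtered cells with a Foxp3 UMI, 4 and 2 had no Cd3 UMI, 25 and 41 passed the MHC class II limit, and 15 and 19 had a Cd8a or Cd8b1 UMI, and these were set aside. Foxp3 UMIs were rare in antigen-presenting cells, with 2 of 353 cells in KO (Clopper-Pearson upper end 2.03%) and 0 of 311 in WT (upper end 1.18%). By the rule of 3 counts the 0 allows a share of up to 0.965%.

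The label was checked against Ikzf2 (Helios, a transcription factor of Tregs), Ctla4 and Tnfrsf4 (OX40, a co-stimulatory receptor), which the rule did not use to choose cells. At least 2 of these 3 genes had a UMI in 90.5% of KO Tregs, against 36.6% of KO conventional cells, and in 100% of WT Tregs, against 25.4% of WT conventional cells. The 3 genes were all without a UMI in 3 KO Tregs and in 0 WT Tregs. Cells at the edge of the rule, with exactly 1 Foxp3 UMI, numbered 12 in KO and 25 in WT. They had 504 CPM (UMIs of a gene scaled to the same total in every class) of Ikzf2 in KO and 707 CPM in WT, and cells with 2 or more Foxp3 UMIs had 560 CPM in KO and 624 CPM in WT. Other genes, named after their values were seen, set the KO edge cells apart. Il7r was 706 CPM in KO edge cells against 138 CPM in KO cells with 2 or more Foxp3 UMIs, and Klf2 was 370 CPM against 58.8 CPM. Ccr8 was 84.0 CPM in KO edge cells against 294 CPM in the other KO cells. In WT edge cells Il7r was 390 CPM against 314 CPM, Klf2 90.6 CPM against 62.8 CPM and Ccr8 435 CPM against 424 CPM. Just outside the rule, Foxp3-negative conventional cells had 57.1 and 49.5 CPM of Ikzf2.

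Some markers of other cell types were detected in the Tregs. UMIs of 9 monocyte and macrophage markers summed to 2101 CPM in KO Tregs and 486 CPM in WT Tregs, with all 9 detected, against 1765 CPM in KO and 1024 CPM in WT conventional cells. Most of it sat in 4 KO and 4 WT Tregs, in which 10 myeloid genes made up at least 0.3% of the UMIs (up to 2.42% in KO and 1.58% in WT). Without these cells the markers summed to 107 CPM in KO and 31.5 CPM in WT Tregs. The 8 dendritic cell markers summed to 398 CPM in KO Tregs (3 detected) and 734 CPM in WT Tregs (5 detected), and the 6 NK markers to 360 CPM in KO (3 detected) and 116 CPM in WT (1 detected). The 6 B cell and plasmacytoid markers summed to 610 CPM in KO Tregs and 290 CPM in WT Tregs with 2 detected in each, and 333 of the 337 KO UMIs and 171 of the 180 WT UMIs were of Bst2, which is also on the interferon response list. The B cell genes Cd79a and Ms4a1 and the dendritic cell genes Xcr1 and Clec9a were at 0 in the Tregs of both libraries. Several results below change without the 8 Tregs rich in myeloid UMIs, and values without them are given beside those.

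Levels were compared on counts summed over the cells of a class, as CPM. A gene was counted as higher or lower where the levels differed at least 2-fold and at least 1 of the classes reached 100 CPM. The cells were chosen by Foxp3, so Tregs set against Foxp3-negative cells are a description of what such cells hold and no test is given for it. Of 1411 genes measured in both libraries, 40 (2.83%) were higher and 17 (1.2%) were lower in Tregs than in conventional CD4 cells in both. In the KO library alone 65 of 1574 genes (4.13%) were higher and 32 (2.03%) lower, and in the WT library 127 of 1612 (7.88%) and 60 (3.72%). Without the cells with myeloid UMIs 44 of 1421 genes (3.1%) were higher and 20 (1.41%) lower in both libraries, with 38 and 16 of them shared with the counts above. The shares were then 4.99% higher and 2.4% lower in KO, and 7.61% higher and 3.74% lower in WT.

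Treg identity genes were mostly higher. Of 18 such genes 7 reached the level floor, and 6 of these were higher in both libraries and 0 lower (Ikzf2, Il2ra, Ctla4, Tnfrsf18, Izumo1r and Capg), with Ikzf3 not called. The median log2 ratio of the 7 was 1.62 in KO and 1.90 in WT, beside 0.10 for all genes in each library. Ikzf2 was 554 CPM in KO Tregs against 57.1 CPM in KO conventional cells, a ratio of 9.70 (7.41 to 12.8), and 639 CPM in WT Tregs against 49.5 CPM in WT conventional cells, a ratio of 12.9 (8.68 to 20.0). Ctla4, which takes the CD80 and CD86 ligands away from CD28, was 1373 CPM in KO Tregs against 223 CPM in KO conventional cells, and 1231 CPM in WT Tregs against 228 CPM in WT conventional cells. Il2ra was 328 CPM in KO Tregs against 52.8 CPM in KO conventional cells, and 208 CPM in WT Tregs against 20.9 CPM in WT conventional cells. For all 3 genes both Treg values lay above both conventional values. The other 11 members of the list, among them Nrp1, Lrrc32, Itgae and Entpd1, were under 100 CPM in the classes compared. Shares of cells are given for 2 of them, chosen after their values were seen. Nrp1 had a UMI in 14.3% of KO Tregs against 26.8% of KO conventional cells, and in 25.3% of WT Tregs against 21.9% of WT conventional cells. Itgae had one in 7.94% of KO Tregs against 1.31% of KO conventional cells, and in 11.5% of WT Tregs against 0.877% of WT conventional cells.

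**Figure D1:**
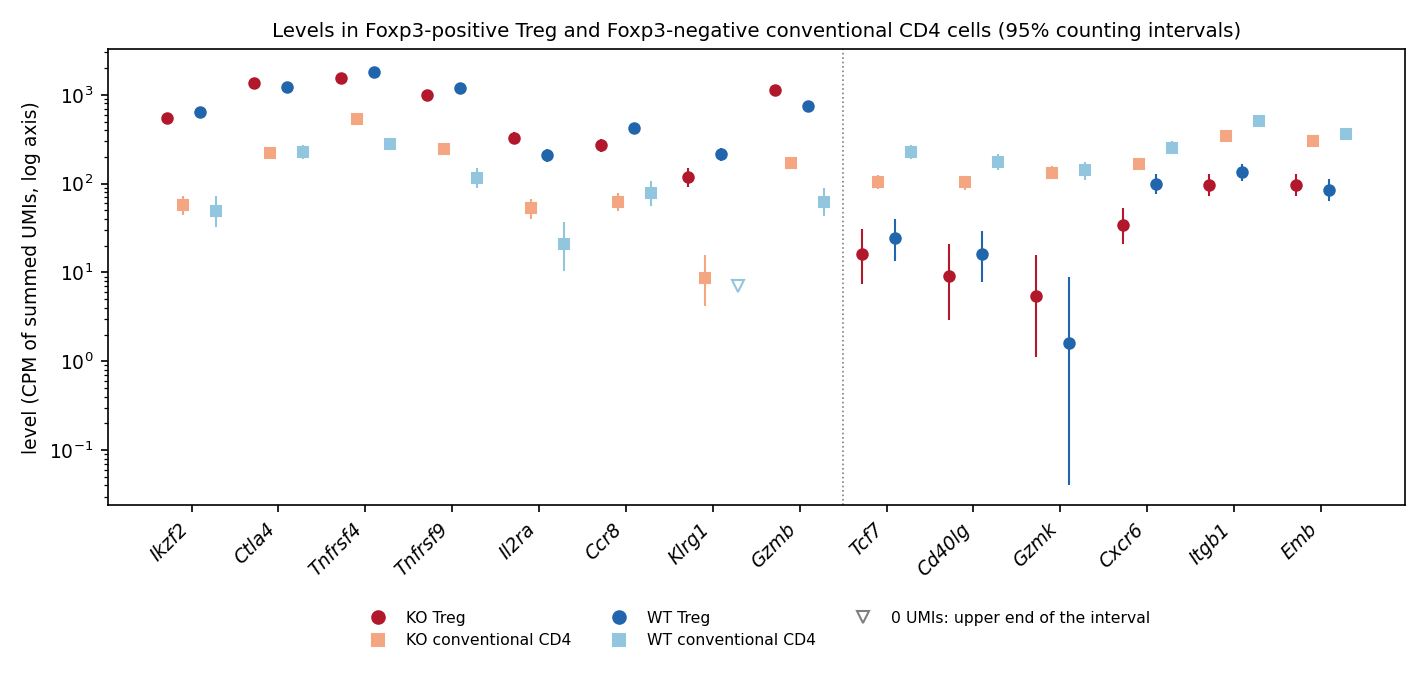
Levels of 14 genes in KO Tregs, KO conventional CD4 cells, WT Tregs and WT conventional CD4 cells, as CPM of summed UMIs on a log axis with 95% counting intervals. The 8 genes left of the dotted line were higher in Tregs in both libraries (Ikzf2 at 554 and 639 CPM in KO and WT Tregs), and the 6 right of it were lower (Tcf7 at 16.3 and 24.2 CPM); Klrg1 had 0 UMIs in WT conventional cells.

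Receptors of the TNF family carry survival and co-stimulatory signals. Of 8 measured genes of the TNF receptor and NF-kB list, 5 were higher in both libraries and 0 lower (Tnfrsf4, Tnfrsf9, Tnfrsf18, Tnfrsf1b and Cd27), while Traf1, Nfkbia and Tnfaip3 were not called. Tnfrsf9 (4-1BB) was 999 CPM in KO Tregs against 248 CPM in KO conventional cells, a ratio of 4.04 (3.49 to 4.67), and 1208 CPM in WT Tregs against 116 CPM in WT conventional cells, a ratio of 10.4 (8.01 to 13.7). Tnfrsf4 was 1536 CPM in KO Tregs against 537 CPM in KO conventional cells, and 1796 CPM in WT Tregs against 280 CPM in WT conventional cells. The Treg levels of both receptors differed by less than 2-fold between the libraries. In conventional cells the KO-over-WT ratio was 2.13 (1.61 to 2.86) for Tnfrsf9 and 1.92 (1.60 to 2.31) for Tnfrsf4, which was not called. Tnfrsf1b, a receptor for TNF itself, was 159 CPM in KO Tregs against 50.2 CPM in KO conventional cells, and 144 CPM in WT Tregs against 34.3 CPM in WT conventional cells.

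The second RefSeq start of Tnfrsf9 is shown because its upstream bases hold a match to the NF-kB motif searched, which is GGG, any 2 bases and TTTCC on either strand. The window of its first start holds no match. A gene was counted where any of its windows of 250 bases held a match. This was so for 447 of 27025 genes with a promoter window (1.65%) and 30 of 1244 measured genes with a window (2.41%). Of 36 genes with a window that were higher in Tregs in both libraries, 5 had a match (Cmtm7, Pglyrp1, Serpina3g, Tnfrsf9 and Tuba1c). The window shown, of the second start, lies on GRCm38.p6 at chr4:150927749-150927998, plus strand, and capitals mark the match. A match is a description of letters and says nothing about binding.
Tnfrsf9: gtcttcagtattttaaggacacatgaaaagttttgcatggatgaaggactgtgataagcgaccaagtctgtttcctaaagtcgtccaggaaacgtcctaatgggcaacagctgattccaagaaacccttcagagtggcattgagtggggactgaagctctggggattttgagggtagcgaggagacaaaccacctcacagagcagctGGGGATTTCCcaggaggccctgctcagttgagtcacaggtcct

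Genes known from activated tissue and tumor Tregs were higher in 8 of 18 measured members in both libraries and lower in 0. Ccr8 was 271 CPM in KO Tregs against 62.3 CPM in KO conventional cells, and 426 CPM in WT Tregs against 78.0 CPM in WT conventional cells. Klrg1, an inhibitory lectin receptor, was 118 CPM in KO Tregs against 8.65 CPM in KO conventional cells. In WT Tregs it was 213 CPM, against 0 UMIs in WT conventional cells. By the lower end of the counting interval, taken with the count of 0, it was at least 29.9-fold higher. The highest cell held 34 of the 132 WT Treg UMIs. Klrg1 was seen in 17 of 63 KO Tregs and 25 of 87 WT Tregs. Tigit, an inhibitory receptor, was 715 CPM in KO Tregs against 282 CPM in KO conventional cells, and 674 CPM in WT Tregs against 244 CPM in WT conventional cells. Glrx (glutaredoxin, which reduces protein disulfides) and the adaptor gene Samsn1 were also higher in both libraries, while Icos, Batf, Maf, Lgals1 and 6 others were not called in both.

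Of the suppressive effector genes 5 were measured in both libraries, and Gzmb and Fgl2 were higher. Gzmb (granzyme B, a protease of cytotoxic granules) was 1127 CPM in KO Tregs against 170 CPM in KO conventional cells, a ratio of 6.61 (5.62 to 7.80), and 747 CPM in WT Tregs against 62.8 CPM in WT conventional cells, a ratio of 11.9 (8.35 to 17.5). It was seen in 38 of 63 KO Tregs and 44 of 87 WT Tregs, so a large part of the cells had none detected. Fgl2, a secreted fibrinogen-like protein, was 190 CPM in KO Tregs against 50.2 CPM in KO conventional cells, and 223 CPM in WT Tregs against 53.3 CPM in WT conventional cells. Tgfb1 was not called, at 290 CPM in KO Tregs against 190 CPM in KO conventional cells, and 266 CPM in WT Tregs against 154 CPM in WT conventional cells. Il10, an inhibitory cytokine named here after its values were seen, was under the floor. It had a UMI in 17.5% of KO Tregs against 1 of 153 KO conventional cells, and in 13.8% of WT Tregs against 0 of 114 WT conventional cells (Clopper-Pearson upper end 3.18%, and 2.63% by the rule of 3 counts).

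The inhibitory receptor list had 2 of 5 measured genes higher (Ctla4 and Tigit) and 0 lower. Lag3 passed only in WT, at 212 CPM in KO Tregs against 112 CPM in KO conventional cells, and 194 CPM in WT Tregs against 13.3 CPM in WT conventional cells. In the IL-2 receptor and STAT5 list 1 of 9 genes (Il2ra) was higher in both libraries and 0 were lower. The shared receptor chain Il2rb stayed under 2-fold, at 501 CPM in KO Tregs against 274 CPM in KO conventional cells, and 486 CPM in WT Tregs against 322 CPM in WT conventional cells. The feedback inhibitor Cish and the kinase gene Pim1 passed 2-fold in WT, with ratios of 2.16 and 2.13, and were at 1.90 and 1.93 in KO. Without the cells with myeloid UMIs Pim1 was higher in both libraries, with ratios of 2.193 in KO and 2.152 in WT. Cish was then at 1.987 in KO, still under 2-fold. Of 8 genes of this list measured without those cells, 2 were higher in both libraries and 0 lower.

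**Figure D2:**
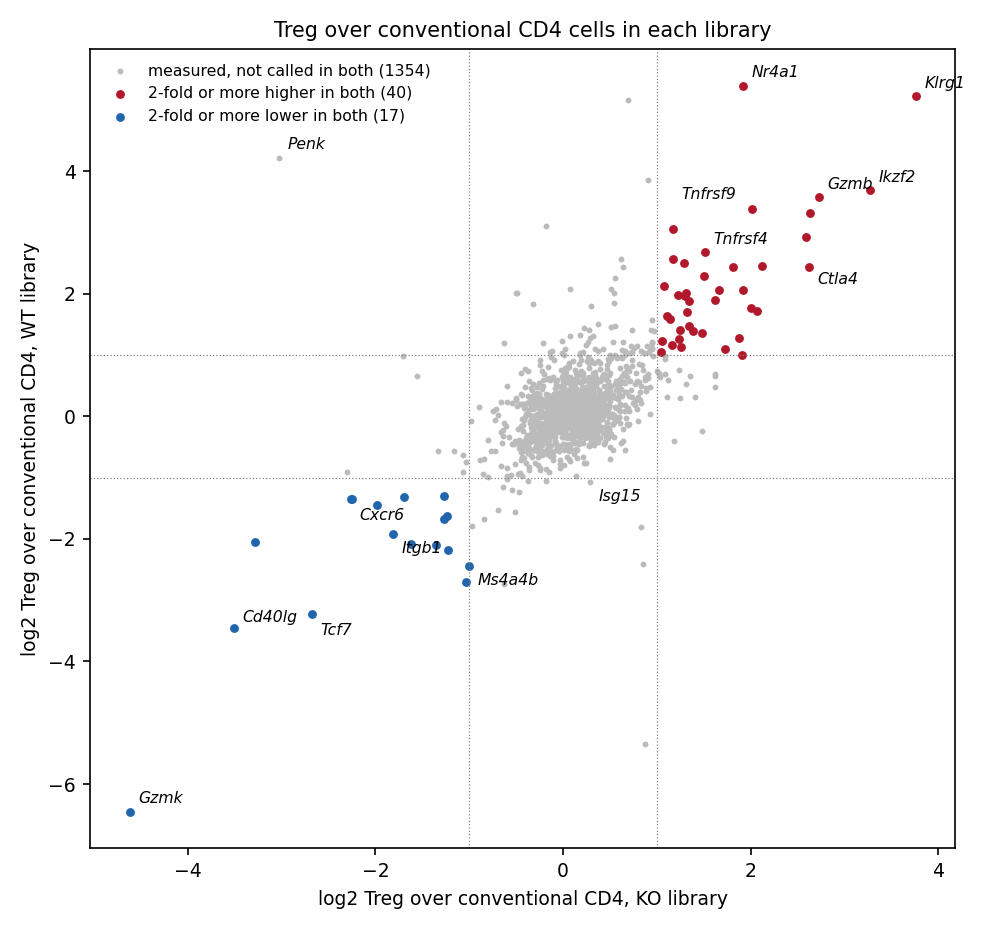
The log2 ratio of Tregs over conventional CD4 cells in the KO library (x axis) and in the WT library (y axis), for the 1411 genes measured in both. Red points are the 40 genes 2-fold or more higher in both, blue points the 17 lower in both, dotted lines mark 2-fold, and Penk lies at -3.02 in KO and 4.22 in WT.

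Resting and naive T cell genes made up the largest named group of the lower genes. Of 6 measured members 5 were lower in both libraries and 0 higher (Ccr7, Tcf7, Lef1, Klf2 and Slamf6), and the list's median log2 ratio was -1.23 in KO over 7 genes and -1.90 in WT over 10 genes. Tcf7 was 16.3 CPM in KO Tregs (9 UMIs in 7 cells) against 104 CPM in KO conventional cells (120 UMIs in 67 cells), a ratio of 0.157 (0.0700 to 0.308). In WT Tregs it was 24.2 CPM (15 UMIs in 9 cells) against 226 CPM in WT conventional cells (119 UMIs in 53 cells), a ratio of 0.107 (0.0580 to 0.183). Ccr7, the lymph node homing receptor, was 38.0 CPM in KO Tregs against 181 CPM in KO conventional cells, and 85.5 CPM in WT Tregs against 219 CPM in WT conventional cells. Il7r, the interleukin 7 receptor, passed 2-fold in KO with a ratio of 0.476 (0.384 to 0.587) and not in WT with a ratio of 0.534 (0.446 to 0.639).

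Helper genes were lower for 2 of 6 measured members, Cd40lg and Gzmk, and higher for 0. Cd40lg, the helper signal to antigen-presenting cells, was 9.05 CPM in KO Tregs against 103 CPM in KO conventional cells, and 16.1 CPM in WT Tregs against 177 CPM in WT conventional cells. Gzmk, a granzyme of effector memory cells, had 3 UMIs in KO Tregs against 154 in KO conventional cells, a ratio of 0.0407 (0.00831 to 0.121), and 1 UMI in WT Tregs against 74 in WT conventional cells, a ratio of 0.0115 (0.000286 to 0.0658). The chemokines Ccl3 and Ccl4 were higher than in conventional cells in WT only: Ccl4 was 380 CPM in KO Tregs against 234 CPM in KO conventional cells, and 474 CPM in WT Tregs against 13.3 CPM in WT conventional cells. In KO 126 of 210 Treg UMIs of Ccl4 came from 1 cell, and without the cells with myeloid UMIs the KO direction turned, to 112 CPM in KO Tregs against 264 CPM in KO conventional cells, a ratio of 0.423 (0.308 to 0.571).

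Homing genes split. Of 5 measured chemokine receptors, Ccr2 and Ccr8 were higher and Cxcr6 and Ccr7 lower in both libraries. Cxcr6, the receptor for CXCL16, was 34.4 CPM in KO Tregs against 164 CPM in KO conventional cells, a ratio of 0.209 (0.123 to 0.336), and 100 CPM in WT Tregs against 255 CPM in WT conventional cells, a ratio of 0.392 (0.285 to 0.534). Of 7 integrin and adhesion genes, Itgav was higher and Itgb1 and Itga4, the chains of the VLA-4 integrin, were lower. Itgb1 was 97.7 CPM in KO Tregs against 344 CPM in KO conventional cells, and 134 CPM in WT Tregs against 506 CPM in WT conventional cells. Itga4 had ratios of 0.254 (0.153 to 0.400) in KO and 0.366 (0.251 to 0.526) in WT. Cd28, the co-stimulatory receptor that competes with Ctla4 for ligand, was not called, at 192 CPM in KO Tregs against 164 CPM in KO conventional cells, and 168 CPM in WT Tregs against 286 CPM in WT conventional cells.

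Antigen receptor response genes were higher for 1 of 5 measured members, Nr4a1, an orphan nuclear receptor induced by receptor signalling. It was 125 CPM in KO Tregs against 32.9 CPM in KO conventional cells, and 240 CPM in WT Tregs against 5.71 CPM in WT conventional cells. It was seen in only 11 KO and 21 WT Tregs, and 41 of its 69 KO Treg UMIs came from 1 cell. Without the cells that carry myeloid UMIs its KO log2 ratio was 0.64, in place of 1.93, and it was no longer called. None of 8 AP-1 and immediate early genes, 7 cycling genes or 11 interferon response genes was called in both libraries, in either direction, and without the cells that carry myeloid UMIs 1 AP-1 gene and 1 interferon response gene were lower in both.

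**Figure D3:**
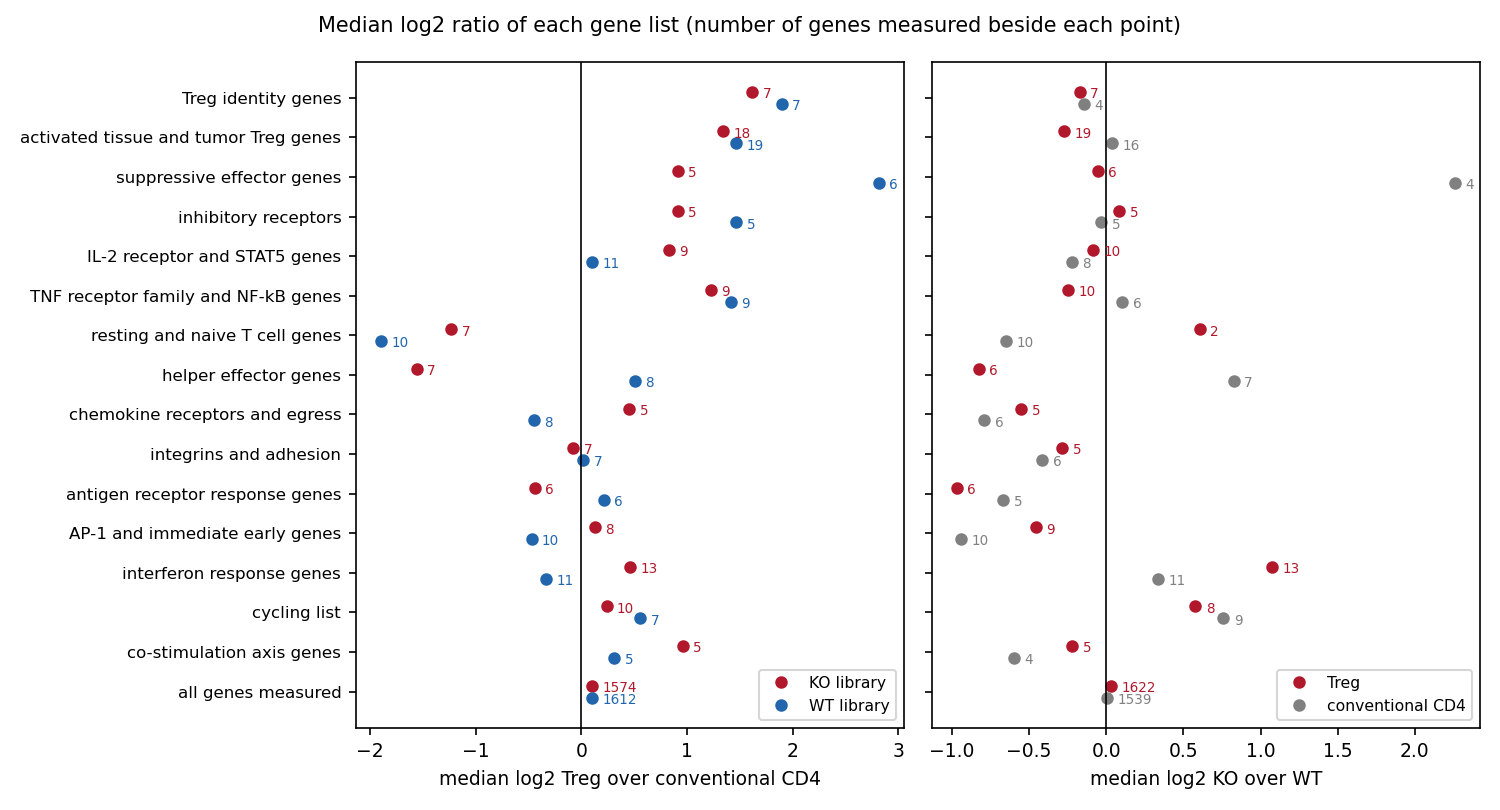
Median log2 ratio of each gene list, with the number of genes measured beside each point: Tregs over conventional CD4 cells in each library (left) and KO over WT in Tregs and in conventional cells (right). The Treg identity list lies at 1.62 and 1.90 in the KO and WT libraries, and the interferon response list lies at 1.08 for KO over WT in Tregs, beside 0.33 in conventional cells.

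KO Tregs were then set beside WT Tregs. The lineage genes themselves were close. Of 7 measured Treg identity genes 0 differed 2-fold in either direction and their median log2 ratio was -0.17, beside 0.03 for all 1622 genes measured. Foxp3, which chose the cells in both libraries alike, was 427 CPM in KO Tregs and 442 CPM in WT Tregs. Ikzf2 had a KO-over-WT ratio of 0.867 (0.744 to 1.01), Ctla4 of 1.12 (1.01 to 1.24) and Tnfrsf4 of 0.856 (0.782 to 0.936). Over all genes 32 (1.97%) were higher and 29 (1.79%) were lower in KO Tregs, and in conventional cells 47 of 1539 (3.05%) were higher and 31 (2.01%) lower in KO. Without the cells with myeloid UMIs, 15 of 1588 genes (0.945%) were higher and 25 (1.57%) lower in KO Tregs, with 10 and 20 of them shared with the counts from all cells, and in conventional cells 42 (2.73%) were higher and 28 (1.82%) lower.

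Tcf7, the floxed gene, was low in the Tregs of both libraries, so its ratio is loose: 16.3 CPM in KO and 24.2 CPM in WT, a ratio of 0.673 (0.260 to 1.64). Conventional CD4 cells, which hold more of it, had 104 CPM in KO and 226 CPM in WT, a ratio of 0.459 (0.353 to 0.596). A Tcf7 UMI was seen in 11.1% of KO and 10.3% of WT Tregs, a difference of 0.770 percentage points (-9.86 to 12.6). At this depth a difference of Tcf7 between KO and WT Tregs was not detectable.

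The interferon response list had the highest KO-over-WT median in Tregs of the 15 lists. Interferons induce these genes in many cell types, and their products block viral RNA and load or trap antigens. Of 13 measured members 7 were higher in KO than in WT Tregs (Isg15, Ifit1, Ifit3, Irf7, Bst2, Gbp2 and Iigp1) and 0 lower, and the list's median log2 ratio was 1.08, beside 0.03 for all genes. In conventional CD4 cells 0 of 11 were called, with a median of 0.33. Without the cells with myeloid UMIs 4 of 11 were higher in KO Tregs and the median was 0.86. No test of the difference between the 2 cell classes was made, since each has 1 library per genotype.

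Isg15, a ubiquitin-like protein, was 733 CPM in KO Tregs and 215 CPM in WT Tregs, a ratio of 3.42 (2.80 to 4.19). In conventional cells it was 599 CPM in KO and 451 CPM in WT, and in CD8 T cells without a Foxp3 UMI it was 185 CPM in KO and 196 CPM in WT. In these sums WT Tregs lay under WT conventional cells (log2 ratio -1.07) and KO Tregs slightly above KO conventional cells (0.29). Without the highest cell of each class these log2 ratios were -0.995 in WT and 0.11 in KO. Without the cells with myeloid UMIs they were -0.83 in WT and 0.56 in KO. By share of cells WT Tregs were not lower, with an Isg15 UMI in 48.3% of WT Tregs and 36.8% of WT conventional cells. Without the cells with myeloid UMIs the KO-over-WT log2 ratio of Isg15 in Tregs was 1.44, in place of 1.77, and in conventional cells it was 0.04, in place of 0.41. Ifit3, which binds into complexes that hold foreign RNA, was 127 CPM in KO Tregs and 24.2 CPM in WT Tregs, and its log2 ratio moved to 1.85 without those cells, in place of 2.39. Irf7, the amplifying transcription factor of the response, was 337 CPM in KO Tregs and 140 CPM in WT Tregs, with a log2 ratio of 1.26 with and without those cells. An Irf7 UMI was also seen in more KO than WT conventional cells, 60.8% against 36.0%, beside 68.3% against 44.8% of Tregs. Iigp1, an interferon-induced GTPase, was 219 CPM in KO Tregs and 77.4 CPM in WT Tregs.

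These genes were spread over cells. After thinning each cell to 2000 UMIs, Isg15 had a UMI in 55.2% of 58 KO Tregs and 29.6% of 81 WT Tregs, a difference of 25.5 points (7.91 to 41.8), and before thinning in 68.3% and 48.3%. Bst2 (tetherin, which holds budding virus at the membrane) had a UMI in 63.8% of thinned KO Tregs and 30.9% of thinned WT Tregs, a difference of 32.9 points (15.2 to 48.6). Ifit3 followed with 27.6% of KO and 6.17% of WT Tregs. These shares come from a single draw, and the mean share over draws was 48.9% in KO and 28.4% in WT for Isg15, 59.8% in KO and 35.4% in WT for Bst2, and 19.03% in KO and 5.15% in WT for Ifit3. The KO share was thus higher in this draw than on average for all 3 genes, and KO stayed above WT on average. In the same draw conventional cells had an Isg15 UMI in 38.6% of KO and 28.2% of WT cells. Their shares were 48.3% in KO and 34.95% in WT for Bst2, and 22.1% and 21.4% for Ifit3. T cells with a Cd8a or Cd8b1 UMI and no Cd4 UMI had 22.3% in KO and 18.9% in WT for Isg15. Their shares were 41.3% and 28.05% for Bst2, and 12.5% and 15.2% for Ifit3. The thinned share for Irf7 was 46.55% in KO and 28.4% in WT Tregs, and 38.6% in KO and 25.2% in WT conventional cells. For Irf7 it was 21.7% in KO and 21.95% in WT in the same CD8 class. Antigen-presenting cells, which make these transcripts themselves, had an Isg15 UMI in 58.4% of thinned KO cells and 46.1% of thinned WT cells, and their part in the Treg values was not tested. A single KO Treg, with 1 Foxp3 UMI, held 92 of the 405 Isg15 UMIs, and without the highest cell of each class the log2 ratio was 1.56. Among cells with 2 or more Foxp3 UMIs Isg15 was 584 CPM in KO Tregs and 230 CPM in WT Tregs. Bst2 was named after its values were seen.

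**Figure D4:**
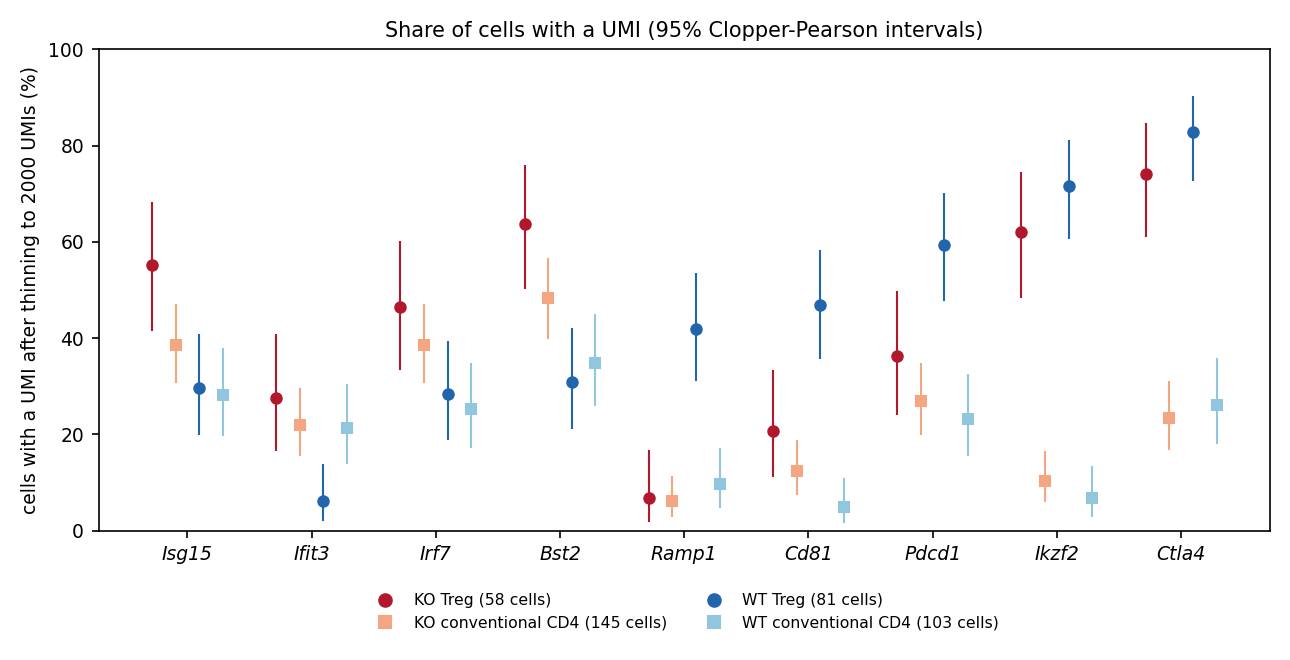
Share of cells with a UMI of 9 genes after each cell was thinned to 2000 UMIs in a single draw, in KO Tregs, KO conventional CD4 cells, WT Tregs and WT conventional CD4 cells, with 95% Clopper-Pearson intervals. Isg15, Ifit3, Irf7 and Bst2 stand higher in KO than in WT Tregs (55.2% against 29.6% for Isg15), and Ramp1 and Cd81 stand lower (6.90% against 42.0% for Ramp1).

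Upstream windows of 3 of these genes are shown because they share letters of the interferon-stimulated response element, searched as GAAA, any 2 bases and GAAA on either strand. A match in any window of 250 bases was found for 936 of 27025 genes with a window (3.46%), and for 61 of 1244 measured genes with a window (4.90%). It was found for 5 of the 6 interferon list genes with a window that were called higher in KO Tregs (Bst2, Gbp2, Ifit1, Ifit3 and Isg15). It was also found in 2 of 3 measured list genes that were not called, Ifi203 and Igtp. Of 24 genes lower in KO Tregs with a window 0 had a match. The windows end 1 base before the RefSeq start on GRCm38.p6, Isg15 at chr4:156200819-156201068 (minus strand), Ifit1 at chr19:34640639-34640888 (plus strand) and Ifit3 at chr19:34583279-34583528 (plus strand), and capitals mark the matches, which overlap each other in Isg15.
Isg15: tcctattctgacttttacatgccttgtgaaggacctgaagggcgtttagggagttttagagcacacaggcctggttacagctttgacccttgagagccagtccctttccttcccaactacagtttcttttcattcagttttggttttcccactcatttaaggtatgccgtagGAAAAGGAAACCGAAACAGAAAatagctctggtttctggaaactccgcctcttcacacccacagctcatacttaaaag
Ifit1: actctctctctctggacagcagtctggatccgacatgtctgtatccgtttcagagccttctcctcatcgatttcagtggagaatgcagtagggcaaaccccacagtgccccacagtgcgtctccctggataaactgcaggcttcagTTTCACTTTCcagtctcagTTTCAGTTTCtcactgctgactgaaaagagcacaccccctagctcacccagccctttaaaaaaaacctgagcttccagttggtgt
Ifit3: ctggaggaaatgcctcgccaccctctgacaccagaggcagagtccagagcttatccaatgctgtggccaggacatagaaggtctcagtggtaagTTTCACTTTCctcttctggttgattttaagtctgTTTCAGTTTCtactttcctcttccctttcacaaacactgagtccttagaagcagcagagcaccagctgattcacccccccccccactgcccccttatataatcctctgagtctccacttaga

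Of the other genes highest in KO Tregs, most sat in few cells. Spp1 had 90 of its 92 KO Treg UMIs in 1 cell, and Chil3, Wfdc17 and Alox5ap, genes of myeloid cells, were seen in 4 or 5 KO Tregs each. Without the cells with myeloid UMIs the log2 ratio of Spp1 was -2.03, in place of 4.10. Alox5ap then had 1 UMI in KO Tregs and 0 in WT Tregs. Its log2 ratio of -1.29, in place of 3.00, has the 0 set at 3 counts, so its sign was not measured. These genes were not read as differences between Tregs. Cxcl10, an interferon-induced chemokine, had 120 UMIs in 11 KO Tregs and 2 UMIs in 2 WT Tregs, a ratio of 67.3 (18.2 to 562). Its log2 ratio was 4.58 without the cells with myeloid UMIs, in place of 6.07. Its levels were then 83.8 CPM in KO and 3.5 CPM in WT Tregs, both under the floor, so it was no longer called. In conventional cells its log2 ratio was -0.15, or -1.48 without the cells with myeloid UMIs and 0.93 without the highest cell of each class.

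**Figure D5:**
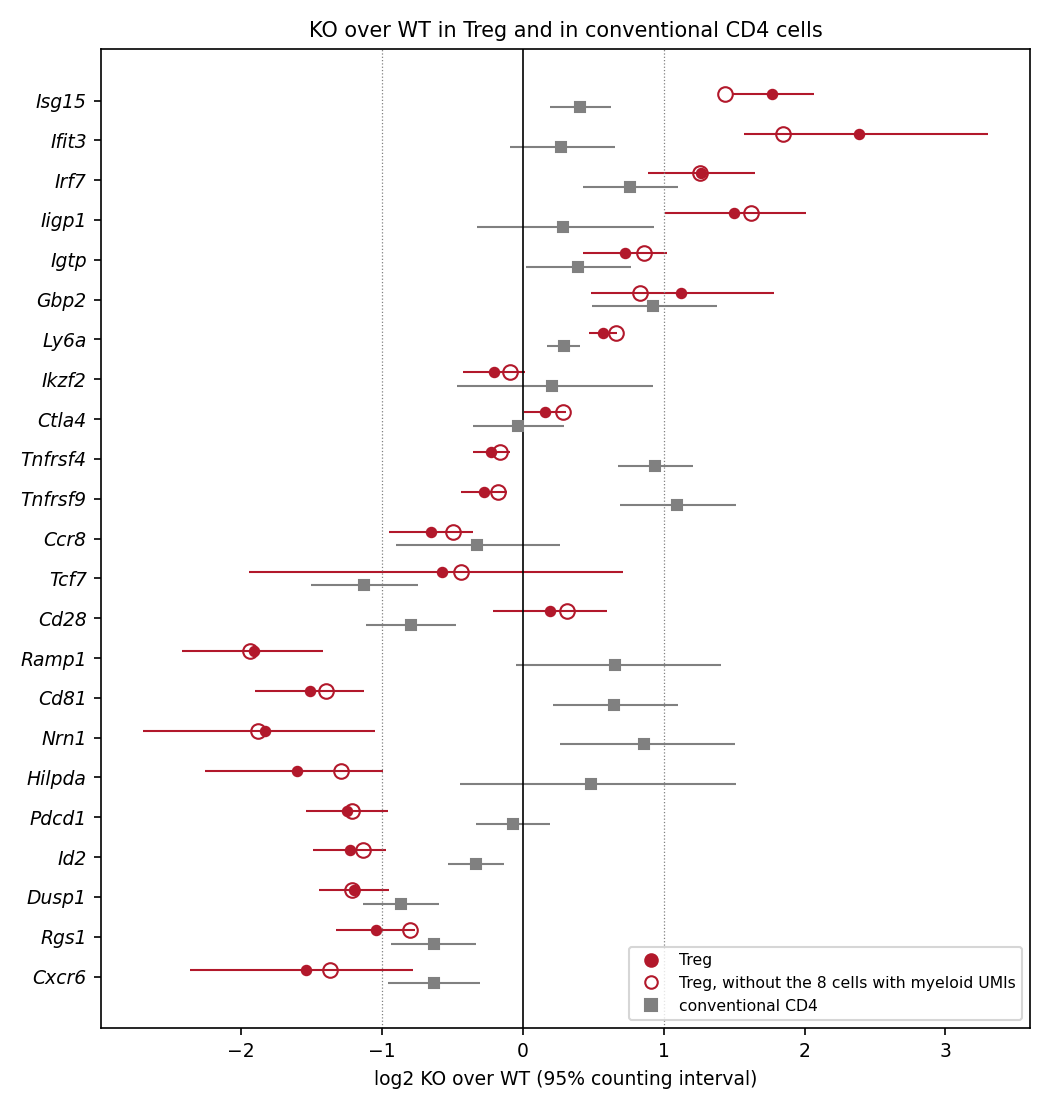
The log2 ratio of KO over WT with 95% counting intervals for 23 genes, in Tregs (red), in Tregs without the 8 cells with myeloid UMIs (open red) and in conventional CD4 cells (grey), with dotted lines at 2-fold. Interferon response genes stand at the top with Treg ratios above 0 (1.77 for Isg15), the Treg lineage genes near 0 (-0.21 for Ikzf2), and Ramp1, Cd81 and Pdcd1 below 0 (-1.91 for Ramp1).

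Ramp1 was among the genes lower in KO Tregs. This gene, a partner chain that turns the calcitonin receptor-like receptor into the receptor for the neuropeptide CGRP, was 77.8 CPM in KO Tregs and 292 CPM in WT Tregs, a ratio of 0.267 (0.186 to 0.373). Conventional cells had 65.8 CPM in KO and 41.9 CPM in WT, so that KO Tregs were near both conventional classes and WT Tregs above all of them. After thinning, a Ramp1 UMI was seen in 6.90% of KO Tregs and 42.0% of WT Tregs, a difference of -35.1 points (-47.6 to -20.4). Thinned antigen-presenting cells had one in 8.14% of KO and 6.78% of WT cells, so the KO Treg share was at the level of cells of another type. The log2 ratio was -1.94 without the cells with myeloid UMIs, and in cells with a Cd4 UMI the levels were 73.2 CPM in KO and 286 CPM in WT Tregs. Ramp3, a related partner chain, was lower in Tregs than in conventional cells in both libraries, at 10.9 CPM in KO Tregs against 106 CPM in KO conventional cells, and 37.1 CPM in WT Tregs against 154 CPM in WT conventional cells.

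Cd81, a tetraspanin of the cell surface, was 134 CPM in KO Tregs and 381 CPM in WT Tregs, a ratio of 0.352 (0.267 to 0.459), and its thinned share was 20.7% of KO and 46.9% of WT Tregs. Pdcd1 (PD-1, an inhibitory receptor) was 250 CPM in KO Tregs and 592 CPM in WT Tregs, a ratio of 0.422 (0.344 to 0.514), while conventional cells had 331 CPM in KO and 348 CPM in WT. Its thinned share was 36.2% of KO and 59.3% of WT Tregs, a difference of -23.1 points (-39.4 to -5.19). Id2, a transcription regulator of effector cells, was 315 CPM in KO Tregs and 737 CPM in WT Tregs, but its thinned share of 51.7% in KO and 63.0% in WT differed by -11.2 points (-28.3 to 6.33). Of 19 measured genes of the activated Treg list 3 were lower in KO (Il1r2, Rora and Id2) and 0 higher, and their log2 ratios had a median of -0.28. With the cells with myeloid UMIs left out 2 were lower, and Rora had a log2 ratio of -0.97, in place of -1.13. Hilpda (a lipid droplet protein induced by low oxygen) was 52.5 CPM in KO Tregs and 160 CPM in WT Tregs, and Nrn1 (neuritin) was 30.8 CPM in KO Tregs and 110 CPM in WT Tregs.

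Of 6 measured antigen receptor response genes Myc and Rgs1 were lower and 0 higher (median log2 ratio -0.97), and in conventional cells Tnfaip3 alone was lower of 5, with a median of -0.67. Rgs1, a brake on chemokine receptor signals, was 273 CPM in KO Tregs and 563 CPM in WT Tregs, and was under 2-fold (log2 ratio -0.80) without the cells with myeloid UMIs. The AP-1 list had 1 of 9 genes lower in KO Tregs (Dusp1, a phosphatase of MAP kinases) and 0 higher, and 5 of 10 lower in KO conventional cells. After leaving out the cells with myeloid UMIs 2 of 8 were lower in KO Tregs, with Fos at a log2 ratio of -1.29. Dusp1 was 344 CPM in KO Tregs and 789 CPM in WT Tregs, a ratio of 0.436 (0.367 to 0.516). Cxcr6 was 34.4 CPM in KO Tregs and 100 CPM in WT Tregs, a ratio of 0.344 (0.194 to 0.583), and in conventional cells the ratio was 0.645 (0.514 to 0.810). Cxcr6 without the cells with myeloid UMIs was 38.7 CPM in KO Tregs and 99.7 CPM in WT Tregs, both under the floor. Of 8 measured cycling genes 0 were called, with a median log2 ratio of 0.58, beside 0.76 in conventional cells. A Mki67 or Top2a UMI was seen in 24 of 63 KO and 21 of 87 WT Tregs, but KO Tregs were deeper. Mki67 alone had a UMI in 33.3% of KO and 16.1% of WT Tregs. After thinning its shares were 13.8% in KO and 11.1% in WT, a difference of 2.68 points (-9.08 to 15.7).

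Several low genes rested on few cells. The 70 WT Treg UMIs and the 9 KO Treg UMIs of the chemokine Xcl1 came from 1 cell each. Ccl3 was 74.2 CPM in KO Tregs (10 cells) and 286 CPM in WT Tregs (23 cells). Penk, the precursor of enkephalin opioid peptides, was 79.6 CPM in KO Tregs (8 cells) and 284 CPM in WT Tregs (11 cells). Rln3 (relaxin-3) was 50.7 CPM in KO Tregs (6 cells) and 182 CPM in WT Tregs (17 cells), a ratio of 0.278 (0.177 to 0.423). In the GENCODE annotation of GRCm38 Rln3 lies at chr8:84042929-84045000 on the minus strand, with its end 339 bases before the start of Il27ra on the same strand, and reads of the pair at that edge cannot be told apart from the counts alone.

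Tregs of 1 library differed among themselves. Cells with a Mki67 or Top2a UMI, marks of division, were deeper (medians of 10685 UMIs in KO and 5951 in WT). In Tregs without these UMIs Pdcd1 was 430 CPM in KO and 662 CPM in WT, and in Tregs with them 144 CPM in KO and 467 CPM in WT. Isg15 was 1099 CPM in KO and 206 CPM in WT Tregs without these UMIs, and 518 CPM in KO and 229 CPM in WT Tregs with them. Ramp1 was 73.2 CPM in KO and 327 CPM in WT Tregs without them, and 80.5 CPM in KO and 229 CPM in WT Tregs with them. Each gene thus kept its direction of KO against WT in both kinds of Treg, but Pdcd1 differed by less than 2-fold in Tregs without these UMIs.

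Tregs made up a smaller part of the CD4 lineage in KO. They were 63 of 216 Treg and conventional cells in KO, 29.2% (23.2 to 35.7), and 87 of 201 in WT, 43.3% (36.3 to 50.4), a difference of -14.1 points (-23.4 to -4.56). With every cell thinned to 2000 UMIs and the rule applied again, the shares were 32.1% of 140 KO cells and 42.0% of 143 WT cells, a difference of -9.82 points (-21.3 to 1.93), whose interval includes 0. With a comparator that needs no Cd4 UMI they were 19.3% in KO and 29.5% in WT, a difference of -10.2 points (-17.1 to -3.19). Sorted gates were mixed in equal numbers before loading, and the rule set aside cells with MHC class II, Cd8a or Cd8b1 UMIs, so these are shares of the rule and not of the tumor. With 1 library of 3 pooled tumors per genotype, the spread between animals is unknown.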

How the data were processed

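Droplet single-cell RNA counts were analysed from 2 libraries, 1 per genotype, each of cells pooled from 3 tumors. The authors deposited a matrix of whole-number UMI counts per gene and barcode, not normalized. The submitters' processing notes name Cell Ranger 1.3 and mm10, and the file headers name software 3.0.2; the sources used here give no use of strand in counting, so genes with overlapping exons (Foxp3, Irf7, Cd81, Penk, Cxcl10 and Dusp1 among those named) cannot be told apart from their partners.

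Cells with at least 500 UMIs, 300 genes and at most 10% mitochondrial UMIs were kept. Of 27998 genes, 56 symbols that occur more than once were summed. Counts were summed per library and cell class and given as CPM with exact Poisson intervals. Ratios have exact conditional binomial intervals and shares Clopper-Pearson intervals, all at 95%, and intervals of a difference join the bounds of both shares. For its ratio a gene at 0 was set at 3 counts over the class, and its interval used the count of 0. Shares were repeated with cells thinned to 2000 UMIs. No doublets were removed, and Scrublet in scanpy 1.11.5 marked 3 KO and 6 WT cells, none of them Tregs. Python 3.11.15, numpy 2.4.6, scipy 1.17.1, pandas 2.3.3, matplotlib 3.10.9, R 4.3.3 and edgeR 4.0.16 (TMM factors only) were used, and the ratio calls were tested on simulated data. Promoter sequences come from RefSeq on GRCm38.p6.

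Members, gene lists and alternatives were chosen with earlier results of these data known. Genes were named by rule: 7 fixed genes, the 12 highest and 12 lowest of Tregs over conventional cells, the 8 highest and 8 lowest of KO over WT in Tregs, ranked by the interval bound nearest to 1, and up to 4 members per list. Alternatives changed the floor, the fold, the scaling, the Foxp3 and Cd4 rules, depth, cycling cells, doublet calls and the highest cell of each gene. Leaving out cells with at least 0.3% myeloid UMIs, or with a Mki67 or Top2a UMI, was added after seeing the data. Some results, 1 alternative among them, are not reported here.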

Additional observations from a re-analysis of the deposited data

Results flagged for a closer look

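Penk, the enkephalin precursor, had opposite signs in the classes compared. Its log2 ratio of KO over WT was -1.83 in Tregs and 5.41 in conventional CD4 cells, and its log2 ratio of Tregs over conventional cells was -3.02 in KO and 4.22 in WT. In KO conventional cells 261 of 748 Penk UMIs came from 1 cell. Il1r2, a decoy receptor for interleukin 1, had log2 ratios of KO over WT of -1.20 in Tregs and 1.3 in conventional cells. Socs3, an inhibitor of cytokine signalling, had log2 ratios of KO over WT of 1.35 in Tregs and -1.29 in conventional cells. Without the cells with myeloid UMIs Socs3 was at 0.99 in Tregs, under 2-fold, and at -1.35 in conventional cells. With 1 library per genotype these differences between cell classes were not tested.

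Foxp3 UMIs were also seen in T cells that the rule set aside. Of T cells with a Cd8a or Cd8b1 UMI, 7.21% in KO (15 of 208 cells, 4.09 to 11.6) and 9.65% in WT (19 of 197 cells, 5.91 to 14.7) held a Foxp3 UMI. In antigen-presenting cells, a class without Cd3 UMIs by definition, the counts were 2 of 353 in KO and 0 of 311 in WT. The T cells with both Foxp3 and Cd8a or Cd8b1 UMIs had median depths of 17095 UMIs in KO and 10964 in WT. Their Ikzf2 levels were 465 CPM in KO and 574 CPM in WT. Whether they are doublets was not tested.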

How the results depend on the processing

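No paired analysis was possible because each genotype has 1 library and the labels carry no replicate numbers. The genes higher in Tregs in both libraries (40) numbered 65 with a floor of 50 CPM, 24 with 200 CPM, 103 at 1.5-fold, 65 by averaging the CPM of single cells and 95 without cells with 3 or more cycling list UMIs, and the genes lower (17) numbered 40, 5, 34 and 27 under the first 4 and 26 with a comparator that needs no Cd4 UMI. The genes higher in KO Tregs (32) numbered 81 with a floor of 50 CPM, 13 with 200 CPM, 115 at 1.5-fold, 18 with 2 or more Foxp3 UMIs, 253 without cycling list cells, 16 without the highest cell of each gene, 15 without cells with myeloid UMIs and 100 without cells with a Mki67 or Top2a UMI. The genes lower in KO Tregs (29) numbered 72, 13 and 96 under the first 3, 223 without cycling list cells and 55 without cells with a Mki67 or Top2a UMI. Leaving out cycling list cells keeps 19 KO and 25 WT Tregs. The Treg share was 17.7% in KO and 33.7% in WT where a Cd4 UMI was needed, and 19.3% in KO and 29.5% in WT with the wider comparator. In WT it was 35.2% with 2 or more Foxp3 UMIs and 34.7% without cycling list cells. The Tcf7 ratio in Tregs stayed within its interval under every alternative run.

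Of 261 ratios of named genes, 2259 values under the alternatives stayed within the spread, 502 moved and 26 changed the sign of a called ratio, and of 44 list medians 514 values stayed, 34 moved and 1 changed the sign of a median past 1.5-fold. Sign changes of ratios that were not called, such as Gbp2 in Tregs over conventional cells in KO (-0.80, and 0.39 without cells with myeloid UMIs), are among the values that stayed or moved. The cause of each was not tested. Among Tregs over conventional cells in KO, without cycling list cells the median log2 of helper effector genes was 0.00729, and Gzmk was 0.62, Sh2d1a 0.43, Penk 2.35, Bhlhe40 1.35 and Rrm2 2.94. That setting kept 19 KO Tregs. Gzmk had only 3 UMIs in all KO Tregs, so its sign there was not measured well. Rrm2 is on the cycling list, so cells were left out by its own UMIs. Rrm2 was 0.000553 in cells with 2000 to 20000 UMIs and 0.86 without Mki67 or Top2a cells. Spp1 was -2.36 with 2 or more Foxp3 UMIs, -1.71 with a Cd4 UMI needed, -1.26 at 2000 to 20000 UMIs, -0.52 without the highest cell and -3.42 without cells with myeloid UMIs. Wfdc17 was -0.50, -4.98, -0.027 and -1.31 under the same settings other than the Cd4 rule. For KO over WT in Tregs, Spp1 was -1.54 with 2 or more Foxp3 UMIs, -0.93 with a Cd4 UMI needed, -2.25 at 2000 to 20000 UMIs, -0.42 without the highest cell and -2.03 without cells with myeloid UMIs. At 2000 to 20000 UMIs Chil3 was -1.25, Wfdc17 -1.99 and Ccl6 -1.40. Alox5ap was -1.29 without cells with myeloid UMIs, where it had 1 UMI in KO Tregs and 0 in WT Tregs, with the 0 set at 3 counts. Xcl1 was 0.17 without the highest cell, where both Treg classes had 0 UMIs and were set at 3 counts.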
